A study of Mus musculus with 8 samples.

Results

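Genes of oxidative phosphorylation were followed in RNA of the parietal bone, a flat bone of the skull, taken from C57BL/6J mouse pups. A row of the count table was taken when its symbol began with Nduf, Uqcr, Atp5 or Cox4 to Cox8, when it was Sdha, Sdhb, Sdhc, Sdhd or Cyc1, or when it was an ND, COX, ATP or CYTB gene of mitochondrial DNA. This gave 112 of 27133 rows, 99 encoded in the nucleus and 13 in the mitochondrial genome. The pups had received either an isotype control antibody or an antibody that blocks CSF1R, a receptor that monocytes, macrophages and osteoclasts need. Both antibodies were given by the transcranial route, on postnatal days 2, 4 and 6. All animals were perfused and the bone was taken on postnatal day 9, so the groups share strain, age, dosing days and perfusion. Each group had 4 libraries, called here by the number in their title, isotype 2 to 5 and anti-CSF1R 7 to 10. Whether each library came from a pup of its own is not stated, so the tests rest on the spread among libraries, which may be technical. The study asks what myeloid depletion does to the transcriptome of this bone.

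Complexes I to IV of the inner mitochondrial membrane pass electrons from NADH and succinate to oxygen and pump protons, and complex V, the ATP synthase, uses the proton gradient to make ATP. Complex I (NADH dehydrogenase), complex III (cytochrome bc1), complex IV (cytochrome c oxidase) and complex V are each built from subunits of both genomes, whereas all subunits of complex II (succinate dehydrogenase) come from nuclear genes. Osteoclasts and muscle fibres are known for their many mitochondria. Mitochondrial messenger RNAs are cut from long transcripts of both strands and carry short poly(A) tails, which poly(A) selection captures to a degree that can vary. In bulk tissue, fewer cells of a type and less RNA per cell cannot be told apart.

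The mitochondrial genes fell into a high and a low group of count levels, and the low group lies in a stretch that nuclear DNA repeats. Of the 13 genes, ND1, ND2, COX1, ND4, ND5, ND6 and CYTB took 99.8% to 99.9% of the mitochondrial counts in every library. The other genes, COX2, ATP8, ATP6, COX3, ND3 and ND4L, lie next to each other between COX1 and ND4. Mouse chromosome 1 holds a copy of this region, annotated in GENCODE M21 (build GRCm38) as a row of 7 unprocessed pseudogenes on the minus strand that span 4663 bases. The copies of COX2 (Gm28661), ATP6 (Gm10925), COX3 (Gm28437) and ND4L (Gm10222) have 0 differences from the mitochondrial genes over their annotated length, and so does the copy of ND4 (Gm28439), which covers 876 of its 1378 bases. The copy of ND3 (Gm28438) is 99.7% identical, with 1 difference in 345 aligned bases, and the copy of COX1 (Gm29216) covers 492 of its 1545 bases with 6 differences. Of all stretches of 101 bases, the read length, 99.5% in COX2, 99.5% in ATP6, 99.9% in COX3, 97.6% in ND3 and 98.5% in ND4L occur in another annotated transcript. The share is 60.7% in ND4, 30.7% in COX1, 3.1% in ND2 and 0 in ND1, ND5, ND6 and CYTB. ATP8 has no annotated copy, but the gap between the copies of COX2 and ATP6 is 233 bases long against 230 bases in the mitochondrial genome. ATP8 is 204 bases long, and how much of it lies in that gap was not measured. How reads that map to several places were counted is not given in the sources used here. The first bases of COX2 and ND3 and of their copies are shown because a read from this part of COX2 cannot be assigned by its letters, and one from ND3 only by 1 base. COX2 is at chrM:7013-7132 (plus strand) and Gm28661 at chr1:24615446-24615565 (minus strand). ND3 is at chrM:9459-9518 (plus strand) and Gm28438 at chr1:24613060-24613119 (minus strand). Capitals mark the only base that differs between ND3 and its copy.
COX2: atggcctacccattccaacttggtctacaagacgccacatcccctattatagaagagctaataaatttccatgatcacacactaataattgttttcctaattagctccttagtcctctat
Gm28661: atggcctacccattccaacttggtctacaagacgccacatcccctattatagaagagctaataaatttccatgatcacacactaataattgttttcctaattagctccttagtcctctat
ND3: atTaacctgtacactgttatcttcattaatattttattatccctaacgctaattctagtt
Gm28438: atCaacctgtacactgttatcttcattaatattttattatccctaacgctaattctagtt

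Over isotype 2 and 5 and the 4 anti-CSF1R libraries, COX1, a catalytic subunit of complex IV, had a mean level of 5752 CPM per kilobase (CPM are counts scaled to a common library size, with TMM factors), whereas COX2, its partner in the same complex, had 16.4 CPM per kilobase. CYTB, the mitochondrial subunit of complex III, had a level of 4077 CPM per kilobase. ND1, ND2, ND4, ND5 and ND6, membrane subunits of complex I, had levels of 3127, 1376, 1032, 912 and 1183 CPM per kilobase. ATP6 and ATP8, the mitochondrial subunits of the ATP synthase, had levels of 10.9 and 13.1 CPM per kilobase, and COX3, ND3 and ND4L had 11.8, 15.1 and 3.92 CPM per kilobase. COX2 held 0.111% to 0.177% of the counts of COX1. The counting of reads with several matches is unknown. The low values of COX2, ATP8, ATP6, COX3, ND3 and ND4L therefore cannot be read as levels of those messengers. The values of ND4 and COX1, with 60.7% and 30.7% of their stretches of 101 bases shared, are uncertain for the same reason, as are ratios to COX1. ND6 is encoded on the strand opposite to the other 12 genes, and since the strand setting of the counting is not given, its counts and those of RNA from the other strand cannot be told apart.

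**Figure D1:**
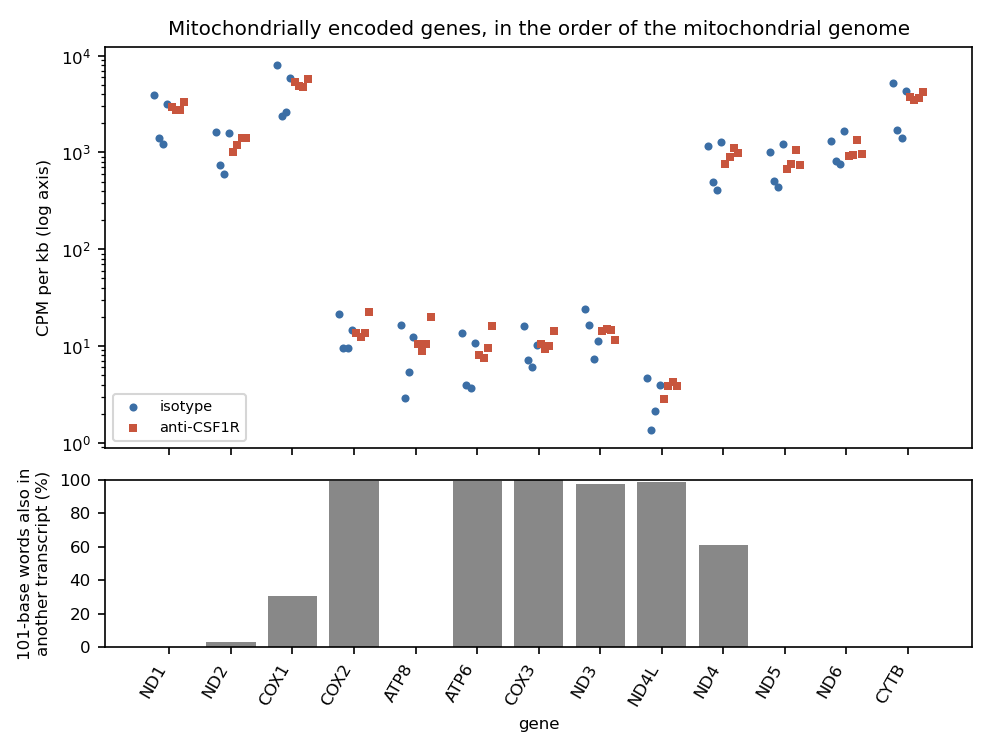
The upper panel plots CPM per kilobase on a log axis for the 13 mitochondrially encoded genes in each of the 8 libraries (circles isotype, squares anti-CSF1R), in the order of the mitochondrial genome; the lower panel gives the percentage of stretches of 101 bases that also occur in another GENCODE M21 transcript. From COX2 to ND4L the values stand far below their neighbours, and COX1 and CYTB are the highest.

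Isotype 3 and 4 stood apart from the other 6 libraries, and oxidative phosphorylation genes were among those that did so. The nuclear members together took 0.498%, 0.907%, 0.677% and 0.490% of all counts in isotype 2 to 5 and 0.473%, 0.479%, 0.432% and 0.447% in anti-CSF1R 7 to 10. The mitochondrially encoded members took 2.74%, 0.817%, 0.835% and 2.49% in isotype 2 to 5 and 1.99%, 2.02%, 2.07% and 2.26% in anti-CSF1R 7 to 10. Isotype 3 and 4 were thus the highest libraries for the nuclear members and the lowest for the mitochondrial ones. The ratio of mitochondrial to nuclear counts was 0.901 in isotype 3 and 1.23 in isotype 4, against 5.50 and 5.08 in isotype 2 and 5 and 4.20 to 5.07 in the anti-CSF1R libraries. Isotype 3 and 4 were both above all other libraries in 79 of 92 tested nuclear members (85.9%) and in 32.8% of all 17028 genes tested. They were both below all others in 12 of 13 mitochondrial members (92.3%) and in 36.5% of all genes.

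**Figure D2:**
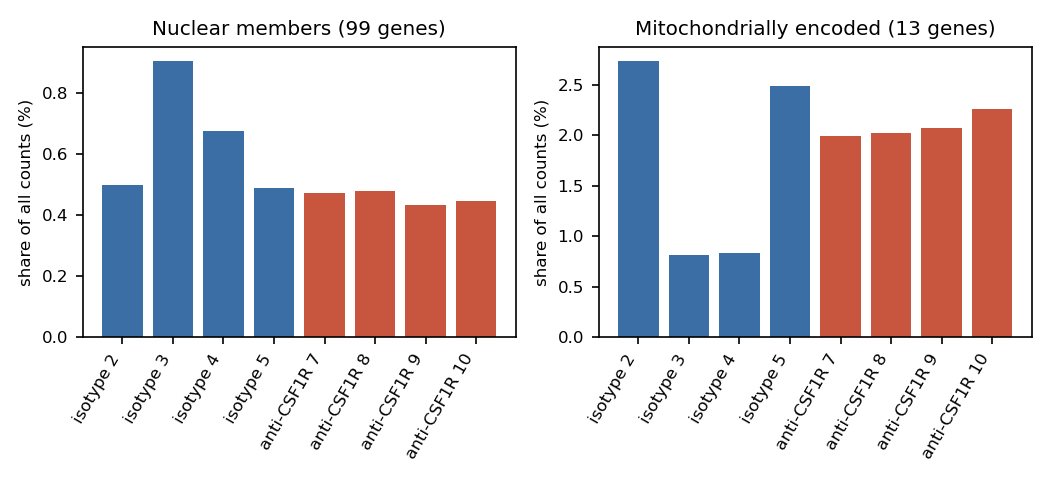
Bars give the percentage of all counts of each library held by the 99 nuclear members (left) and the 13 mitochondrially encoded members (right), for isotype 2 to 5 (blue) and anti-CSF1R 7 to 10 (red). Isotype 3 and 4 are the highest bars on the left (0.907% and 0.677%) and the lowest on the right (0.817% and 0.835%).

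Base composition and transcript length moved with this split. The longest transcripts of the tested nuclear members had a median of 50.2% GC (range 37.0% to 63.3%), and the mitochondrially encoded members ran from 31.9% to 41.1% GC. Over all tested genes with a known transcript the median was 49.9% GC, close to that of the nuclear members. The nuclear members were shorter, with a median of 1106 bases against 3218 bases. Their median deviation from a gene's median was 1.36 in isotype 3 and 0.72 in isotype 4, against -0.05 and -0.03 over all genes. Across the 92 nuclear members, the deviation from a gene's median over the 8 libraries correlated with GC content at a Spearman rho of 0.448 in isotype 3 and 0.499 in isotype 4. Across 16213 genes with a known transcript the values were 0.650 and 0.641, and in the other libraries they lay between -0.370 and -0.0276. With transcript length the values across all those genes were -0.385 in isotype 3 and -0.333 in isotype 4, against -2.48e-04 to 0.258 elsewhere, and across the nuclear members -0.227 and -0.241, against -0.0372 to 0.292. These are correlations across genes of single libraries, and genes are not independent replicates. Only 3 nuclear members were lower in isotype 3 and 4 than in all other libraries: Ndufs1, the largest core subunit of complex I, Uqcrb, a small subunit of complex III, and Ndufaf4, a complex I assembly factor. Their transcripts have 45.1%, 40.4% and 39.5% GC. Ndufs1 had 65.3, 28.7, 34.1 and 67.8 CPM in isotype 2 to 5 and 59.0 to 63.7 CPM in the anti-CSF1R libraries. The part of GC content and length in the difference between the groups was not tested beyond the fits with a GC and length offset given below.

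**Figure D3:**
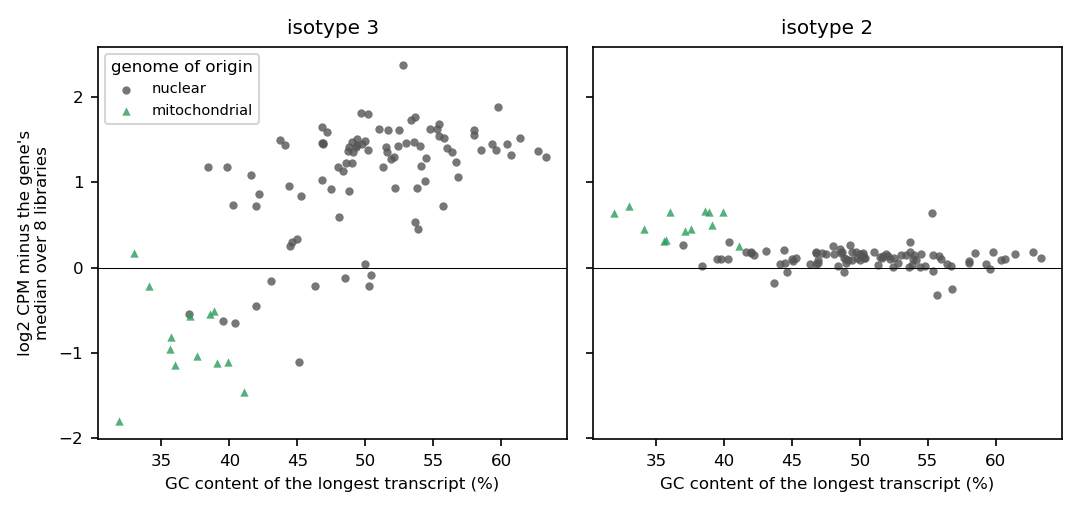
Each point is a tested member (circles nuclear, triangles mitochondrially encoded); the x axis is the GC percentage of its longest transcript and the y axis its log2 CPM minus its median over the 8 libraries, for isotype 3 (left) and isotype 2 (right). In isotype 3 the nuclear members above 45% GC mostly lie above 0 and the mitochondrial ones below; in isotype 2 most nuclear members lie near 0.

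In the comparison of all 8 libraries, the nuclear members had lower mean levels after CSF1R blockade and the mitochondrial members did not, and no single member passed the test. edgeR's quasi-likelihood test tested 105 members, 92 nuclear and all 13 mitochondrial. Of these, 0 had an adjusted p under 0.05, where 0.846% of all genes tested were called (144 genes, 140 of them lower with anti-CSF1R). At an unadjusted p under 0.05 there were 65 nuclear members, all lower, and 0 mitochondrial ones, where 12.6% of all genes were lower at that level. limma-voom called 0 members, where it called 0.681% of all genes (116), and DESeq2 called 7 lower, where it called 3.69% of all genes lower. The median log2 fold change (anti-CSF1R minus isotype) was -0.73 over the 92 nuclear members (range -2.40 to 0.34, 85 negative), 0.16 over the 13 mitochondrial members (range -0.13 to 0.42, 11 positive) and 0.03 over all genes. In 42 of 92 nuclear members every anti-CSF1R library was lower than every isotype library, against 8.34% of all genes, and no mitochondrial member showed this. The count over all genes depended on single libraries: it was 0 without anti-CSF1R 7 (1903 at an unadjusted p under 0.05), 0 without 8 (1597), 4 without 9 and 14 without 10. It was 35 without isotype 4, 260 without isotype 2 and 234 without isotype 5. In each of the 8 fits that leave out a library, 0 members were called. Of the 7 members that did not enter the fit for low counts, 4 are copies of complex I genes (Ndufab1-ps, Ndufs6b, Ndufb4b and Ndufb4c) and 3 are isoforms of complex IV (Cox7b2, Cox8b and Cox8c); none exceeded 0.255 CPM in any library.

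The spread between the isotype libraries was far wider than that between the anti-CSF1R libraries. The median coefficient of variation of the nuclear members was 44.6% in the isotype group and 6.04% in the anti-CSF1R group, against 32.5% and 7.67% over all genes. For the mitochondrial members it was 51.3% and 16.9%.

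**Figure D4:**
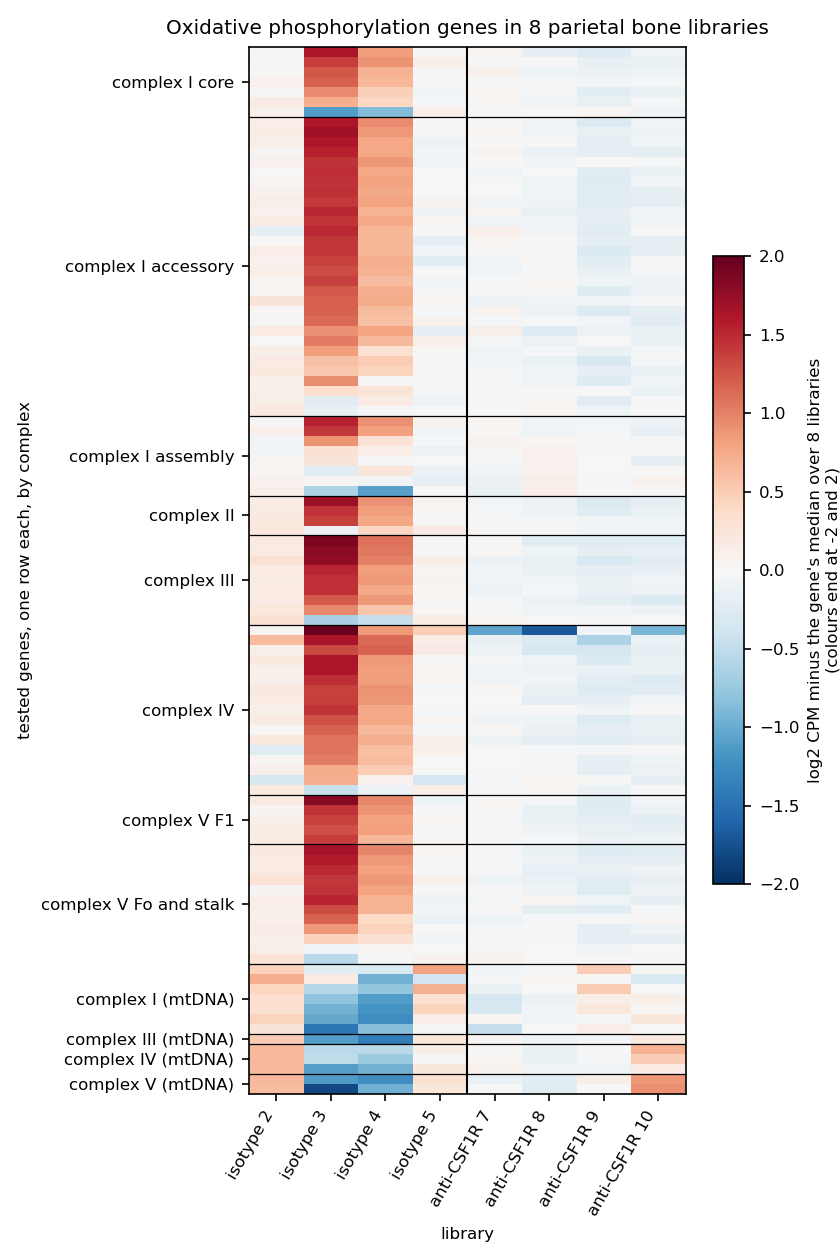
Rows are the 105 tested members grouped by complex, columns the 8 libraries, and colours give log2 CPM minus the gene's median over the libraries (colours end at -2 and 2). The columns of isotype 3 and 4 are red for most nuclear rows and blue for most mitochondrial rows at the bottom; the other columns are pale.

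Complex I takes electrons from NADH. Its 7 core subunits encoded in the nucleus, which hold the flavin and iron-sulfur centres, had a median log2 fold change of -0.60. Of them, 4 were lower at an unadjusted edgeR p under 0.05, against 12.6% of all genes. Ndufv1, which binds NADH and flavin, had 55.0, 129, 88.6 and 53.8 CPM in isotype and 57.5, 51.5, 50.1 and 51.1 CPM in anti-CSF1R. Here isotype 2 and 5 lay inside the anti-CSF1R range (log2 fold change -0.63, SE 0.27, adjusted p = 0.278). Ndufs7 and Ndufs8, iron-sulfur subunits, had log2 fold changes of -0.78 (SE 0.30, adjusted p = 0.278) and -0.88 (SE 0.35, adjusted p = 0.278).

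All 30 accessory subunits of complex I, which surround the core, had negative log2 fold changes, with a median of -0.69 and a range of -0.93 to -0.03. Ndufa9, a subunit near the ubiquinone site, had 47.3, 89.4, 66.1 and 40.8 CPM in isotype 2 to 5 and 36.7, 37.6, 37.3 and 38.4 CPM in anti-CSF1R 7 to 10. The groups did not overlap, yet the log2 fold change of -0.70 (SE 0.24) had an adjusted p of 0.258. Ndufc2, of the membrane arm, also had groups that did not overlap, at 29.8 to 77.4 CPM in isotype and 24.6 to 27.9 CPM in anti-CSF1R (log2 fold change -0.85, SE 0.30, adjusted p = 0.268). Ndufb11 and Ndufa10 had the highest mean CPM of the class. Ndufb11 had 56.8, 160, 89.9 and 48.6 CPM in isotype against 45.7 to 52.7 CPM in anti-CSF1R, and these groups overlapped (log2 fold change -0.83, SE 0.34, adjusted p = 0.278). Ndufa10 had 57.4, 128, 83.9 and 52.1 CPM against 47.0 to 52.0 CPM (log2 fold change -0.68, SE 0.27, adjusted p = 0.278). Ndufb4 shares 33.3% of its stretches of 101 bases with Ndufb4c, so its value is uncertain.

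The 8 assembly factors with Ndufaf names had smaller differences, with a median log2 fold change of -0.08. Ndufaf3 and Ndufaf8, both needed to build complex I, had log2 fold changes of -0.75 (SE 0.31, adjusted p = 0.278) and -0.83 (SE 0.34, adjusted p = 0.278). Ndufaf7, a methyltransferase needed to build complex I, had 16.8, 21.3, 19.1 and 15.9 CPM in isotype and 16.9 to 18.3 CPM in anti-CSF1R, with a log2 fold change of -0.06 (SE 0.14, adjusted p = 0.752). Ndufaf4 had 12.6, 7.67, 5.55 and 11.7 CPM in isotype 2 to 5 and 10.6 to 12.9 CPM in anti-CSF1R, low only in isotype 3 and 4 (log2 fold change 0.34, SE 0.26, adjusted p = 0.369). Ndufaf2 shares 80.5% of its stretches of 101 bases with other transcripts, above all B230220B15Rik, and its value is uncertain.

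Complex II oxidises succinate and belongs also to the citric acid cycle. Its flavin subunit Sdha differed in pattern from its partners. Sdha had 161, 127, 183 and 154 CPM in isotype 2 to 5 and 140, 135, 134 and 130 CPM in anti-CSF1R 7 to 10. Isotype 3 was its lowest library, whereas isotype 3 was the highest for the other 3 subunits. Sdhb, the iron-sulfur subunit, had 58.0, 173, 98.0 and 54.1 CPM in isotype and 42.8 to 50.4 CPM in anti-CSF1R, with no overlap (log2 fold change -1.04, SE 0.35, adjusted p = 0.257). Sdhd, a membrane anchor, had 70.1, 169, 111 and 62.9 CPM and 52.4 to 60.9 CPM, again with no overlap (log2 fold change -0.86, SE 0.29, adjusted p = 0.263). The log2 fold change of Sdha was -0.21 (SE 0.15, adjusted p = 0.339).

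Complex III hands electrons from ubiquinol to cytochrome c. Its 9 nuclear members had a median log2 fold change of -0.84, and 8 of them were lower at an unadjusted edgeR p under 0.05, against 12.6% of all genes. Uqcr10, a small subunit, had 37.7, 105, 61.3 and 33.1 CPM in isotype 2 to 5 and 28.3, 27.7, 24.8 and 26.1 CPM in anti-CSF1R 7 to 10. The groups did not overlap, and isotype 2 and 5 were also above every anti-CSF1R library (log2 fold change -1.15, SE 0.34, adjusted p = 0.199). Uqcr11, another small subunit, had 27.6, 89.0, 51.3 and 24.7 CPM against 20.4 to 23.8 CPM (log2 fold change -1.17, SE 0.38, adjusted p = 0.245). Uqcrc1, a core protein, had 94.0, 234, 155 and 89.3 CPM against 77.6 to 80.8 CPM (log2 fold change -0.84, SE 0.29, adjusted p = 0.268). Uqcrh, the hinge protein, had 88.2, 215, 132 and 80.4 CPM against 71.3 to 76.5 CPM (log2 fold change -0.82, SE 0.29, adjusted p = 0.275). Uqcrb had a positive log2 fold change of 0.12 (SE 0.22, adjusted p = 0.699) with all libraries and a negative one of -0.22 without isotype 3 and 4.

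Complex IV reduces oxygen, and several of its subunits exist as a common isoform and one typical of certain tissues. Cox4i1, the common form of subunit 4, had 148, 428, 249 and 145 CPM in isotype 2 to 5 and 134, 130, 127 and 126 CPM in anti-CSF1R 7 to 10. The groups did not overlap (log2 fold change -0.91, SE 0.33, adjusted p = 0.277). Cox4i2, known from lung, had 4.25 to 10.7 CPM in isotype and 4.93 to 5.10 CPM in anti-CSF1R. The common forms had the higher level in every pair when length was taken into account: mean levels over the 6 libraries without isotype 3 and 4 were 176 CPM per kilobase for Cox4i1 and 6.76 for Cox4i2, 111 for Cox6a1 and 0.166 for Cox6a2, and 88.5 for Cox6b1 and 4.52 for Cox6b2. They were 51.9 CPM per kilobase for Cox7a2 and 1.23 for Cox7a1, 49.2 for Cox7b and 0.159 for Cox7b2, and 117 for Cox8a, 0.284 for Cox8b and 0.0120 for Cox8c.

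The forms typical of heart and skeletal muscle, Cox7a1 and Cox6a2, had the lowest levels per kilobase among the tested nuclear members of complex IV. Cox7a1 had 0.958, 1.93, 1.35 and 0.664 CPM in isotype 2 to 5 and 0.538, 0.489, 0.375 and 0.545 CPM in anti-CSF1R 7 to 10. The groups did not overlap, and the log2 fold change of -1.32 (SE 0.35) had an adjusted p of 0.149, the lowest of all members. Cox6a2 had 0.160, 0.916, 0.297 and 0.226 CPM against 0.0264 to 0.144 CPM, with anti-CSF1R values near the 3 counts taken as the detection floor (0.0396 to 0.0573 CPM). Its log2 fold change was -2.40 (SE 0.69, adjusted p = 0.190). The 20 skeletal muscle markers together had 59.7, 119, 27.3 and 32.2 CPM in isotype 2 to 5 and 23.0 to 23.6 CPM in anti-CSF1R. Their sum was higher in every isotype library than in every anti-CSF1R library, as the values of both genes were, but it was lowest of the isotype group in isotype 4, where both genes had their second highest value. Of these 20, 19 had the lower mean in anti-CSF1R, and Ckm, Myh1, Myh2, Myh4, Myh3, Myh8 and Myod1 were at 0 in at least 1 library. With all libraries, edgeR tested 14 of them and called only Ttn, where it called 0.846% of all genes. At an unadjusted edgeR p under 0.05, 7 of the 14 were lower, against 12.6% of all genes. DESeq2 called 7 of the 14 lower, where it called 3.69% of all genes lower. With the muscle marker score in the fit, the log2 fold changes of Cox7a1 and Cox6a2 were -0.82 and -1.37 (adjusted p = 0.970 for both). In that fit 0 genes of all tested were called, and 840 had an unadjusted p under 0.05. The score was made from these same libraries, and the marker sum differed between the groups without overlap. The fit therefore cannot separate muscle RNA from the treatment, and the smaller fold changes say nothing about either.

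Ndufa4, a subunit now counted with complex IV, had 48.0, 74.6, 63.0 and 45.0 CPM in isotype 2 to 5 and 39.1 to 44.3 CPM in anti-CSF1R (log2 fold change -0.45, SE 0.18, adjusted p = 0.278). Its relative Ndufa4l2, known as a target of hypoxia signalling, had 18.7, 43.6, 39.7 and 19.6 CPM against 16.3, 14.0, 13.8 and 15.6 CPM. Neither gene's groups overlapped. The log2 fold change of Ndufa4l2 was -1.03 (SE 0.29, adjusted p = 0.183). Cox7a2l, which links complexes III and IV into supercomplexes, had 98.3, 248, 153 and 89.0 CPM and 85.4 to 91.0 CPM, with overlap (log2 fold change -0.73, SE 0.30, adjusted p = 0.278). Cox6a1, Cox6b1, Cox7a2 and Cox8a, the common forms, had log2 fold changes between -0.95 and -0.79, and Cox6b2 and Cox7b had -0.13 and 0.01.

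Complex V was measured with 5 members of the F1 head and 12 of the membrane part and stalk. Atp5b, the catalytic beta subunit, had 446, 1051, 718 and 421 CPM in isotype 2 to 5 and 398, 372, 361 and 352 CPM in anti-CSF1R 7 to 10 (log2 fold change -0.83, SE 0.29, adjusted p = 0.263). Atp5a1, the alpha subunit, had 427, 937, 675 and 386 CPM against 379, 364, 344 and 343 CPM (log2 fold change -0.76, SE 0.27, adjusted p = 0.275). In both genes the groups did not overlap, and isotype 5 was the isotype library closest to anti-CSF1R. The c ring that turns with proton flow is made from 3 genes that encode the same mature protein. Atp5g3 had 98.7, 220, 150 and 87.7 CPM in isotype and 76.8, 74.9, 71.1 and 73.0 CPM in anti-CSF1R, with no overlap (log2 fold change -0.91, SE 0.27, adjusted p = 0.212). Atp5g1 had 42.0 to 128 CPM against 34.1 to 39.6 CPM (log2 fold change -1.02, SE 0.33, adjusted p = 0.247). Atp5g2 had 49.9, 114, 74.8 and 44.4 CPM against 39.5 to 47.3 CPM, with overlap (log2 fold change -0.71, SE 0.28, adjusted p = 0.278). Atp5h, a stalk subunit, had 78.2, 204, 130 and 74.2 CPM against 63.2 to 75.5 CPM (log2 fold change -0.81, SE 0.31, adjusted p = 0.278). The inhibitor of the synthase, Atpif1, which is no member by name, had 53.4, 112, 74.2 and 50.8 CPM against 49.6 to 54.9 CPM (log2 fold change -0.46, SE 0.25, adjusted p = 0.294).

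Among the mitochondrially encoded genes, COX1 had 12282, 3654, 4017 and 9141 CPM in isotype 2 to 5 and 8223, 7476, 7393 and 8806 CPM in anti-CSF1R 7 to 10. Every anti-CSF1R library lay between the low pair and the high pair of isotype libraries (log2 fold change 0.13, SE 0.38, adjusted p = 0.808). CYTB had 5892, 1928, 1602 and 4942 CPM in isotype and 4227, 3989, 4132 and 4805 CPM in anti-CSF1R (log2 fold change 0.26, SE 0.40, adjusted p = 0.647). ND1 had 3719, 1333, 1157 and 3009 CPM and 2811, 2593, 2641 and 3182 CPM (log2 fold change 0.28, SE 0.36, adjusted p = 0.574). In these genes too isotype 3 and 4 were the lowest libraries. ND5 had 1836, 922, 792 and 2234 CPM in isotype and 1239, 1379, 1938 and 1355 CPM in anti-CSF1R (log2 fold change 0.03, SE 0.34, adjusted p = 0.951). ND2 and ND4 had log2 fold changes of 0.15 (SE 0.34, adjusted p = 0.762) and 0.16 (SE 0.37, adjusted p = 0.761). ND6 had 675, 426, 398 and 859 CPM in isotype and 473, 487, 693 and 498 CPM in anti-CSF1R (log2 fold change -0.13, SE 0.27, adjusted p = 0.730). The 6 genes of the copied stretch had log2 fold changes between -0.08 (ND3) and 0.42 (ATP8), with adjusted p from 0.551 to 0.863.

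Ratios between mitochondrial genes also varied within the groups. ND5 per COX1 counts stood at 0.149, 0.252, 0.197 and 0.244 in isotype 2 to 5 and 0.151, 0.184, 0.262 and 0.154 in anti-CSF1R 7 to 10. It was high in isotype 3 and 5 and in anti-CSF1R 9, so both groups spanned nearly the same range. ND6 per ND5 counts, a ratio of genes encoded on opposite strands, was 0.462 and 0.503 in isotype 3 and 4 and 0.353 to 0.384 in the other 6 libraries. Because the strand setting is not given, this ratio cannot be read as one of RNA from the opposite strands.

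Without isotype 3 and 4 the differences of the nuclear members were smaller and those of the mitochondrial members turned negative. No label marks isotype 3 and 4, and they were left out because their values stood apart. The p-values of the edgeR fit without them do not account for that choice and rest on isotype 2 and 5 alone as controls. In this fit of isotype 2 and 5 against the 4 anti-CSF1R libraries, the median log2 fold change was -0.13 over 93 nuclear members (85 negative) and -0.34 over the 13 mitochondrial members, with 13 of 13 negative (range -0.52 to -0.21). Over all genes it was 0.00. edgeR called 3 of 106 tested members, all lower with anti-CSF1R, a share near the 2.38% of all genes that were called lower. Uqcr10 fell by 0.41 on the log2 scale (SE 0.08, adjusted p = 0.0233), Atp5g3 fell by 0.34 (SE 0.07, adjusted p = 0.0244) and Cox5a, a nuclear subunit of complex IV, fell by 0.32 (SE 0.06, adjusted p = 0.0259). Cox5a had 42.3 and 39.6 CPM in isotype 2 and 5, 78.9 and 61.4 CPM in isotype 3 and 4, and 34.6, 32.2, 31.6 and 33.3 CPM in anti-CSF1R 7 to 10. All 3 were lower in every anti-CSF1R library than in every isotype library, also with isotype 3 and 4 included, where their adjusted p were 0.199, 0.212 and 0.205. In 49 of 93 nuclear and 4 of 13 mitochondrial members the groups did not overlap with anti-CSF1R lower, against 13.1% of all genes. In 3 nuclear members they did not overlap with anti-CSF1R higher, against 1911 of 17538 genes.

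By complex, the medians of this fit were -0.11 in the complex I core, -0.13 in its accessory subunits, -0.23 in complex II, -0.22 in complex III, -0.21 in the nuclear part of complex IV, and -0.15 in both parts of complex V. All 9 nuclear members of complex III and all 4 of complex II were negative. Of them, 8 of the 9 and 4 of the 4 had an unadjusted p under 0.05, against 8.71% of all genes in that direction. In the complex I core this count was 0 of 7, and no test compared the complexes with each other. Among the mitochondrial genes, COX1 had a log2 fold change of -0.43 (SE 0.13, adjusted p = 0.140), CYTB -0.34 (SE 0.11, adjusted p = 0.163) and ND6 -0.52 (SE 0.17, adjusted p = 0.207), and 7 of 13 had an unadjusted p under 0.05. The ratio of mitochondrial to nuclear counts was 5.50 and 5.08 in isotype 2 and 5 and 4.20, 4.22, 4.80 and 5.07 in anti-CSF1R.

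A per-library offset for GC content and transcript length, with all 8 libraries kept, moved both medians the same way as leaving out isotype 3 and 4. This did not hold for every member. The median log2 fold change became -0.46 over the nuclear and -0.20 over the mitochondrial members, and 0 of 105 members were called at 2.71% of all genes. At an unadjusted p under 0.05, 54 nuclear members were lower, where 13.4% of all genes were lower, and 1 was higher. At that level 3 mitochondrial members were lower, among them ND6, with a log2 fold change of -0.66 and an adjusted p of 0.0513, the lowest of all members in this fit. The strand setting is not given, so the counts of ND6 and those of RNA from the other strand cannot be told apart. ND3 had a log2 fold change of -0.70 (adjusted p = 0.206). Some nuclear members became more negative with the offset. Atp5l went from -0.52 to -1.64, against -0.03 with isotype 2 and 5 only. The median of the assembly factors went from -0.08 to -0.27, against -0.00 with isotype 2 and 5 only. The medians of the other nuclear classes became less negative with the offset. The 7 nuclear members that DESeq2 called lower without the offset were Cox7a1 (adjusted p = 0.0120), Cox6a2 (0.0187), Ndufa4l2 (0.0251), Uqcr10 (0.0272), Atp5g3 (0.0443), Uqcr11 (0.0468) and Cox5a (0.0483). With isotype 2 and 5 only and the offset together, edgeR called 3 of 106 tested members lower, near the 2.47% of all genes. Uqcr10 fell by 0.33 (adjusted p = 0.0443). ND4, whose sequence is shared in part with its copy, fell by 0.48 (adjusted p = 0.0373). ND6, with the strand limit given above, fell by 0.62 (adjusted p = 0.0403). Uqcr10 was the only member called in both of the fits with isotype 2 and 5 only and by DESeq2. These fits share libraries, and how many of all genes were called in all of them was not counted.

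**Figure D5:**
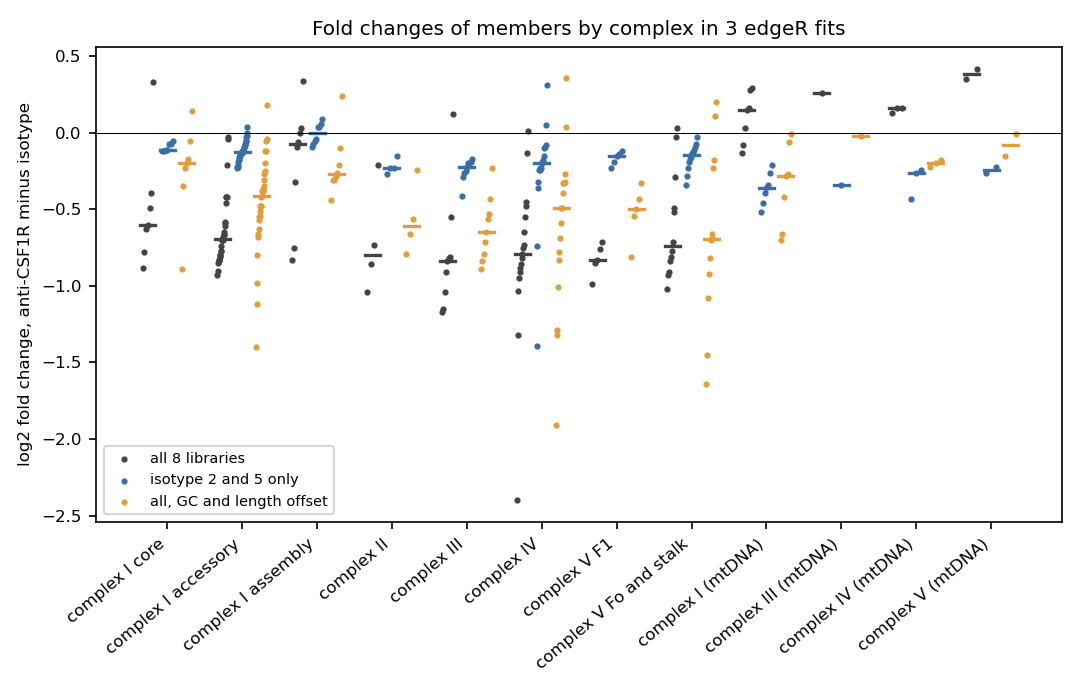
Points are log2 fold changes (anti-CSF1R minus isotype) of tested members by complex and bars their medians, from edgeR with all 8 libraries (black), with isotype 2 and 5 only (blue) and with all libraries and a GC and length offset (orange). The medians of the nuclear classes lie below 0 in all 3 fits except the assembly factors, whose median is near 0 with isotype 2 and 5 only; those of the mitochondrial classes lie above 0 in the first fit and below 0 in the other 2.

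Osteoclast and macrophage markers differed between the groups in the same libraries. The 16 osteoclast markers (among them Acp5, Ctsk and Oscar) summed to 6314, 14489, 11254 and 6756 CPM in isotype 2 to 5 and to 3283, 3203, 3314 and 2467 CPM in anti-CSF1R 7 to 10, and none was at 0 in any library. The 16 macrophage markers summed to 583, 1018, 812 and 616 CPM and to 254, 262, 280 and 224 CPM, with Vsig4 at 0 in at least 1 library. With all 8 libraries, 9 of the 16 osteoclast and 9 of 15 tested macrophage markers were called lower, and with isotype 2 and 5 only 14 and 10 were. Over all genes, 140 of 17028 and 417 of 17538 were called lower in these fits. Isotype 3 and 4 had the highest sums of the isotype libraries for both lists, and also for the osteoblast and osteocyte, the erythroid and the neuron and glia markers. Within the lists the direction varied: isotype 3 and 4 were both above isotype 2 and 5 in 10 of the 16 osteoclast and 8 of the 16 macrophage markers and both below in 4 and 4. Atp6v0d2, a proton pump subunit of osteoclasts, had 138, 74.2, 62.3 and 153 CPM in isotype 2 to 5. Markers of other cells differed too. The 10 chondrocyte markers had a median log2 fold change of -1.50 with all libraries, 9 of them negative, and -1.73 with isotype 2 and 5 only, with 0 called by edgeR in either (5 and 3 lower at an unadjusted p under 0.05) and 4 called lower by DESeq2 with all libraries. The 8 endothelial markers had a median of 0.43 with all libraries (0 called, 4 higher at an unadjusted p under 0.05). With isotype 2 and 5 only the median was 0.27, all 8 were positive, 7 had an unadjusted p under 0.05 and 1 was called higher. Over all genes, 12.6% and 8.71% were lower at that edgeR level in the 2 fits, and 896 of 17028 and 1123 of 17538 were higher. DESeq2 called 3.69% of all genes lower. The tissue label held: the 15 osteoblast and osteocyte markers summed to 170052 to 307136 CPM, with none at 0. The part of any cell type in the levels of the oxidative phosphorylation genes was not tested.

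Among genes that serve oxidative phosphorylation, edgeR called a coenzyme Q factor lower with all libraries and a pair of transcriptional regulators lower with isotype 2 and 5 only. Coq8a, an atypical kinase of coenzyme Q synthesis, had 39.3, 94.1, 67.2 and 39.6 CPM in isotype 2 to 5 and 17.6, 14.3, 15.3 and 14.0 CPM in anti-CSF1R 7 to 10. It fell by 1.97 on the log2 scale (SE 0.29, adjusted p = 0.0266), and by 1.37 with isotype 2 and 5 only (SE 0.09, adjusted p = 1.81e-04). The call with all libraries was lost without isotype 4 (adjusted p = 0.0697) and without anti-CSF1R 7, 8, 9 or 10 (adjusted p = 0.0928, 0.114, 0.119 and 0.117), with log2 fold changes of -2.04 to -1.93. With all libraries it was the only gene edgeR called in 21 tested electron and substrate carriers and their makers, where 0.846% of all genes were called. Of these 21, 9 were lower at an unadjusted p under 0.05 with all libraries, against 12.6% of all genes. Ppargc1b, a coactivator that promotes mitochondrial biogenesis, had 17.8, 11.2, 13.2 and 16.7 CPM in isotype and 7.85, 8.37, 9.32 and 7.76 CPM in anti-CSF1R. Unlike most nuclear members, it was lower in isotype 3 and 4 than in 2 and 5, and the groups did not overlap. Its log2 fold change was -0.82 (SE 0.18, adjusted p = 0.0853) with all libraries, and it fell by 1.05 (SE 0.10, adjusted p = 6.86e-04) with isotype 2 and 5 only. Esrra, a nuclear receptor that works with such coactivators, had 28.8, 47.2, 41.0 and 30.2 CPM against 22.8 to 24.9 CPM, and fell by 0.33 (SE 0.07, adjusted p = 0.0294) with isotype 2 and 5 only, against -0.64 (SE 0.18, adjusted p = 0.183) with all libraries. Ppargc1b and Esrra were chosen after their values were seen, as the only called genes of 17 tested regulators of respiratory genes in that fit. In it, 2.38% of all genes were called lower. DESeq2 with all libraries also called both lower, where it called 3.69% of all genes lower. With the GC and length offset on all libraries their log2 fold changes were -0.62 (adjusted p = 0.184) and -0.52 (adjusted p = 0.0702).

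The regulator with the highest mean CPM, Hif1a, had 104, 40.2, 25.7 and 108 CPM in isotype 2 to 5 and 113 to 121 CPM in anti-CSF1R (log2 fold change 0.75, SE 0.42, adjusted p = 0.298). With all libraries, edgeR called no gene among 12 further complex I, 4 complex II, 6 complex III, 25 complex IV and 5 ATP synthase assembly factors. Of these, 0, 2, 2, 4 and 0 had an unadjusted p under 0.05 and were lower, and 1 in complex II was higher. Over all genes, 12.6% were lower at that level and 896 of 17028 were higher, the background for every such count in this paragraph. DESeq2 called Coa4 of complex IV assembly (log2 fold change -1.14, adjusted p = 0.0326). Of the assembly factors, Acad9, Sdhaf2, Ttc19, Coa5 and Tmem242 had the highest mean CPM, with log2 fold changes of 0.09, -0.06, 0.55, -0.19 and -0.64. No gene was called among 16 genes of mitochondrial DNA upkeep and transcription (1 lower at an unadjusted p under 0.05; Polg, the replicating polymerase, had a log2 fold change of -0.26) and 18 of mitochondrial RNA processing (4 lower; Fastk had -0.55). The neighbouring pathways gave 0 calls among 18 citric acid cycle genes (9 lower at an unadjusted p under 0.05), 18 glycolytic genes (12 lower) and 16 genes of the mitochondrial stress response (6 lower, 1 higher), while DESeq2 called Aldoa and Aldoc lower (adjusted p = 0.0128 and 1.02e-04). Aldoc, a second aldolase that is also on the list of neuron and glia markers, had the lowest log2 fold change of the glycolytic genes with all libraries, at -2.06 (SE 0.43, adjusted p = 0.0746); with the GC and length offset Aldoa and Aldoc fell by 0.64 (adjusted p = 0.0360) and 1.83 (adjusted p = 0.0258). With isotype 2 and 5 only, Mdh2 of the citric acid cycle fell by 0.29 (adjusted p = 0.0481), and Aldoa, a glycolytic aldolase, fell by 0.46 (adjusted p = 0.00844); Mdh2, Aldoa and Aldoc were named after their values were seen. Pkm, the most abundant glycolytic gene by CPM, had a log2 fold change of -0.67 and Atf4, a regulator of the stress response, -0.54 (adjusted p = 0.278 for both).

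Promoter sequences from RefSeq (GRCm38.p6, 250 bases before to 50 after the start) were matched for 78 of the 99 nuclear members. The palindrome of NRF1, a known activator of nuclear respiratory genes (GCGCATGCGC, which reads the same on both strands), occurred in 7 of 78 (8.97%) and in 0.977% of 27025 promoters of all genes. The core of ETS factors such as GABP (CCGGAAG, both strands) occurred in 18 (23.1%) against 9.12%. The YY1 core (AAGATGG, both strands) occurred in 11 (14.1%) against 6.48%. None of the 3 motifs contains another. The stretches around the NRF1 palindrome are shown for 4 members above the other libraries in isotype 3 and 4 and for Ndufaf4, which was below them, to set the same letters beside opposite patterns. Capitals mark the palindrome. The windows are at chr15:102671048-102671127 (Atp5g2, minus strand), chr5:108434405-108434484 (Atp5k, minus strand), chr5:115349076-115349155 (Cox6a1, minus strand), chr17:56717667-56717746 (Ndufa11, plus strand) and chr4:24897935-24898014 (Ndufaf4, plus strand). A match describes the letters and is not evidence of binding.
Atp5g2: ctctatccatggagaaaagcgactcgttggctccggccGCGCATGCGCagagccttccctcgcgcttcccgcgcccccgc
Atp5k: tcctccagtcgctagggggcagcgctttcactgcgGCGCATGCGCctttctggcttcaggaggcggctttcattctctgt
Cox6a1: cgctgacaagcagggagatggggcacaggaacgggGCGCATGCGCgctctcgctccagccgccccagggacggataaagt
Ndufa11: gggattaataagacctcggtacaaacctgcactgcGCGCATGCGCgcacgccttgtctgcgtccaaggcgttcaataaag
Ndufaf4: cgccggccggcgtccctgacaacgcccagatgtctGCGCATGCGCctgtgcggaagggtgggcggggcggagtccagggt

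Of the 7 members with this palindrome, 5 were above all other libraries in isotype 3 and 4 (Atp5g2, Atp5k, Cox6a1, Ndufa11 and Uqcrc1), Ndufaf5 was between and Ndufaf4 was below, beside 79, 10 and 3 of the 92 tested nuclear members. Atp5k had 23.2, 60.2, 34.1 and 19.7 CPM in isotype 2 to 5 and 18.8 to 21.6 CPM in anti-CSF1R (log2 fold change -0.77, adjusted p = 0.278), and Ndufa11 had 24.5, 69.3, 40.2 and 22.6 CPM against 20.5 to 24.5 CPM (log2 fold change -0.84, adjusted p = 0.278). Both overlapped between the groups, and isotype 3 was their highest library, whereas it was among the lowest for Ndufaf4. Nrf1 itself had 37.5, 38.6, 36.4 and 35.4 CPM in isotype and 33.6 to 36.1 CPM in anti-CSF1R (log2 fold change -0.07, SE 0.12, adjusted p = 0.661).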

How the data were processed

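RNA of parietal bone was sequenced in 8 libraries (4 isotype, 4 anti-CSF1R). Per the labels' protocols, poly(A) RNA was made into stranded libraries and read as pairs of 101 bases. The authors deposited 1 table of raw read counts per gene symbol, not normalized. STAR 2.7.10b, featureCounts 1.6.3 and the builds GRCm38 and GRCm39 come from the submitters' processing notes, which give neither build a role. Annotation, strand setting and the handling of multi-mapping reads: not given in the sources used here. Library totals lay between 57.5 M and 69.1 M counts. Even numbers made up 82.8% to 84.7% of counts from 1 to 10, so both mates of a pair appear to be counted and fragments are fewer than counts. A floor of 3 counts covers counting error only.

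Members were found by symbol. The members, the gene lists and the rule for named genes were chosen with earlier results of these data known. Named genes are the mitochondrial genes, the 2 members of each class with the highest mean CPM and the 2 with the smallest p, the isoform pairs, and from each pathway list the called genes or the one with the highest CPM. Some genes that this rule names are not reported here. Genes were kept by filterByExpr and tested with edgeR 4.0.16 in R 4.3.3 (TMM, robust quasi-likelihood F-test, Benjamini-Hochberg adjustment over 17028 genes, threshold 0.05), checked on simulated data. CPM use TMM library sizes. Alternatives were RLE factors, library size alone, library sizes from nuclear genes, DESeq2 1.42.0, limma-voom (limma 3.58.1), no filter, at least 1 CPM in 4 libraries, isotype 2 and 5 only, a GC and length offset (natural splines with 5 degrees of freedom; 95.2% of tested genes had both values), a skeletal muscle score as covariate, halved counts and leaving out each library. Isotype 2 and 5 only with the offset was added after seeing the data. Stretches of 101 bases were compared between GENCODE M21 transcripts (GRCm38), which may not be the build of the counts.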

Additional observations from a re-analysis of the deposited data

Results flagged for a closer look

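Of 138 groups of 4 libraries examined (named genes and summed shares, in each treatment), 8 held a library far from the other 3, and chance alone gives about 1 in 20. COX2 stood at 15.2 CPM in anti-CSF1R 10 against 8.48 to 9.42 CPM in the other anti-CSF1R libraries, and ATP8 at 4.04 CPM in the same library against 1.81 to 2.15 CPM. ND6 stood at 693 CPM in anti-CSF1R 9 against 473 to 498 CPM. Uqcrc1 was lowest in anti-CSF1R 9, at 77.6 CPM against 80.7 to 80.8 CPM, a small step in a group with little spread. Uqcr11 was highest in anti-CSF1R 7, at 23.8 CPM against 20.4 to 20.9 CPM. The remaining ones are at or near the detection floor. Cox7b2 had 0 CPM in isotype 3 against 0.0283 to 0.0330 CPM in the other isotype libraries, and 0.255 CPM in anti-CSF1R 7 against 0.0577 to 0.0792 CPM. Cox8c had 0.0330 CPM in anti-CSF1R 10 and 0 in the other 3.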

How the results depend on the processing

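No paired analysis was possible because the replicate numbers of the groups are not shared (isotype 2 to 5, anti-CSF1R 7 to 10). Over all genes, 144 calls became 777 with DESeq2, 536 with isotype 2 and 5 only, 461 with the GC and length offset, 607 with both together and 0 with the muscle covariate (840 at an unadjusted p under 0.05), and leaving out 1 library gave 0 to 260. Members called went from 0 to 7 with DESeq2, 3 with isotype 2 and 5 only and 3 with both, and stayed at 0 in all 8 fits without 1 library. The median log2 fold change of the nuclear members went from -0.73 to -0.13 and -0.09 in the last pair of fits and lay between -0.91 and -0.38 without 1 library; that of the mitochondrial members then lay between -0.02 and 0.46. The mitochondrial share of all counts was 0.366 percentage points higher in anti-CSF1R (0.0655 to 0.706 without 1 library, -0.527 with isotype 2 and 5 only) and 14.3 points higher as a share of the members' counts. Coq8a was called in edgeR with all libraries but had an adjusted p of 0.238 (-1.57) with the muscle covariate.

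The following values are of named genes whose direction turned; with all libraries their log2 fold changes had lain between -0.83 and 0.42, and after the turn none was called except ND4. Counting unnamed members too, 22 of 105 turned with isotype 2 and 5 only, 21 with the offset, 33 with both and 17 with the muscle covariate. Log2 fold changes with isotype 2 and 5 only were -0.26 (ND1), -0.36 (ND2), -0.43 (COX1), -0.24 (COX2), -0.22 (ATP8), -0.26 (ATP6), -0.26 (COX3), -0.21 (ND4L), -0.39 (ND4), -0.46 (ND5), -0.34 (CYTB), 0.09 (Ndufaf7), -0.04 (Ndufaf4), 0.05 (Cox4i2), 0.31 (Cox6b2), -0.19 (Cox7b), 0.02 (Atpif1) and 0.07 (Polg). With the offset they were -0.06 (ND1), -0.28 (ND2), -0.18 (COX1), -0.22 (COX2), -0.15 (ATP8), -0.01 (ATP6), -0.20 (COX3), -0.01 (ND4L), -0.27 (ND4), -0.42 (ND5), -0.02 (CYTB), -0.21 (Ndufaf4), 0.04 (Cox4i2), 0.36 (Cox6b2), -0.32 (Cox7b), 0.01 (Atpif1) and -0.03 (Acad9). With both they were -0.30 (ND1), -0.45 (ND2), -0.43 (COX1), -0.24 (COX2), -0.48 (ATP8), -0.34 (ATP6), -0.26 (COX3), -0.19 (ND4L), -0.48 (ND4), -0.53 (ND5), -0.34 (CYTB), 0.01 (Ndufb11), 0.12 (Ndufaf7), -0.07 (Ndufaf4), 0.00 (Ndufaf8), 0.13 (Cox4i2), 0.39 (Cox6b2), -0.14 (Cox7b), 0.09 (Atpif1), 0.07 (Tmem242) and 0.06 (Polg). With the muscle covariate they were -0.04 (ND2), -0.06 (COX1), -0.01 (ATP8), 0.54 (ND3), -0.08 (ND4L), -0.13 (ND4), -0.27 (ND5), 0.07 (Ndufaf7), 0.29 (Cox6b2) and -0.17 (Cox7b). Library size alone gave 0.08 (ND3), 0.11 (Ndufaf7), 0.07 (Cox6b2) and 0.11 (Sdhaf2), RLE factors and DESeq2 gave -0.01 for Cox7b, and limma-voom gave 0.05 for ND3. Without 1 library, the values ran from -0.07 to 0.36 (ND2), -0.09 to 0.49 (COX1), -0.06 to 0.44 (COX2), -0.02 to 0.46 (COX3), -0.31 to 0.23 (ND3), -0.07 to 0.44 (ND4), -0.18 to 0.32 (ND5), -0.29 to 0.10 (ND6), -0.14 to 0.02 (Ndufaf7), -0.28 to 0.15 (Cox6b2) and -0.10 to 0.07 (Cox7b). The cause of these turns was not tested. Depth limits Cox6a2, Cox7b2, Cox8b, Cox8c and the gene copies, which lie near the floor.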
